A study of Homo sapiens with 22 samples.

Results

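The destruction complex and its ubiquitin ligases were followed here as 10 genes, listed by name for their role in marking β-catenin for degradation, with earlier results of these data known. They are GSK3A, GSK3B, CSNK1A1 and CSNK1D (kinases), AXIN1 and APC (scaffolds), BTRC, FBXW11 and FBXW7 (F-box proteins) and TNKS (tankyrase). All 10 were found among the 37908 genes counted, and all 10 passed the filter on low counts in every comparison.

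RNA-seq counts came from H1299, an established line of human non-small cell lung carcinoma, in which an shRNA against BRCA2 is switched on by doxycycline (DOX). Cells given 2 µg/mL DOX for 3 days are called BRCA2-deficient and cells grown without DOX BRCA2-proficient. Either kind was transfected with AllStars control siRNA or with a β-catenin siRNA (siβ-catenin). Cells were then given 250 nM LY2090314, a GSK3 inhibitor (GSK3i), for 24 h or were left without it. The labels call the latter untreated, and the study's figure legends name DMSO for them. This gave 22 libraries in 8 groups. The control siRNA groups are called untreated and GSK3i, and the others siβ-catenin and GSK3i+siβ-catenin. Each group held 3 libraries, except that BRCA2-proficient untreated and BRCA2-proficient siβ-catenin held 2 each, numbered 2 and 3. No group had DOX without the shRNA, so the effect of DOX and that of BRCA2 depletion cannot be told apart, and all cells came from 1 line. The study's figure legends describe the RNA-seq replicates as independent experiments.

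In the destruction complex, AXIN1 and APC hold β-catenin beside 2 kinds of kinase. Casein kinase 1α (CSNK1A1) adds the priming phosphate and GSK3 (GSK3A and GSK3B encode its α and β forms) extends it into a phosphodegron. The F-box proteins β-TrCP1 (BTRC) and β-TrCP2 (FBXW11) read that degron and bring in the SCF ubiquitin ligase, and tankyrase (TNKS) marks axin itself for destruction. WNT signals and GSK3 inhibitors stop the phosphorylation, β-catenin accumulates, and TCF/LEF target genes such as AXIN2, a feedback scaffold, are transcribed. FBXW7 uses the same ligase core on other GSK3 substrates, among them MYC and cyclin E.

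The targeted genes followed the labels for siRNA and BRCA2. BRCA2 was at 71.4 to 225 normalised counts in the 12 BRCA2-deficient libraries and at 514 to 1111 in the 10 BRCA2-proficient ones. CTNNB1, the β-catenin gene, was at 977 to 2217 normalised counts in siβ-catenin libraries and at 5206 to 8669 in control siRNA libraries. Normalised counts, the unit of all levels below, scale each library by its DESeq2 size factor, and the libraries held 18.9 to 29.3 M counts in total. Of the markers, KRT8, KRT18, VIM and CDH2 were high (lowest library 1923), EPCAM, CDH1 and KRT19 stayed at or below 22.2, and SFTPB, SFTPC, PTPRC and ALB at or below 7.85. The lung factor NKX2-1 was at 19.8 to 108, and PECAM1 and SCGB1A1 were not matched.

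By a score over many genes, the labels for GSK3i did not hold in 2 libraries. A response score was taken as the mean log2 level of the 1028 genes that were called higher with GSK3i in BRCA2-deficient cells under both siRNAs, less that of the 1510 genes called lower, with the 10 genes left out. By this score the other GSK3i libraries ran from 2.70 to 3.54 and the other libraries without GSK3i from 0.68 to 1.99. The BRCA2-deficient libraries chose the genes, so only the BRCA2-proficient ones are a check. Among the other BRCA2-proficient libraries, scores ran from 3.15 to 3.54 with GSK3i and from 1.39 to 1.99 without. The library labelled BRCA2-proficient siβ-catenin replicate 2 scored 3.13, and the library labelled BRCA2-proficient GSK3i+siβ-catenin replicate 2 scored 1.34. AXIN2, at 65.0 to 227 normalised counts in all siβ-catenin libraries, did not follow the score in both. In BRCA2-deficient siβ-catenin libraries it was at 117 to 227 with GSK3i and at 80.8 to 96.9 without. The library labelled BRCA2-proficient GSK3i+siβ-catenin replicate 2 was at 73.1, against 145 and 117 in the rest of its group. BRCA2-proficient siβ-catenin replicate 2 was at 67.2, near replicate 3 (65.0), as its label has it. No library was moved to another group. For comparisons that use either library, the main results are given with and without it, and all other values use every library.

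**Figure D1:**
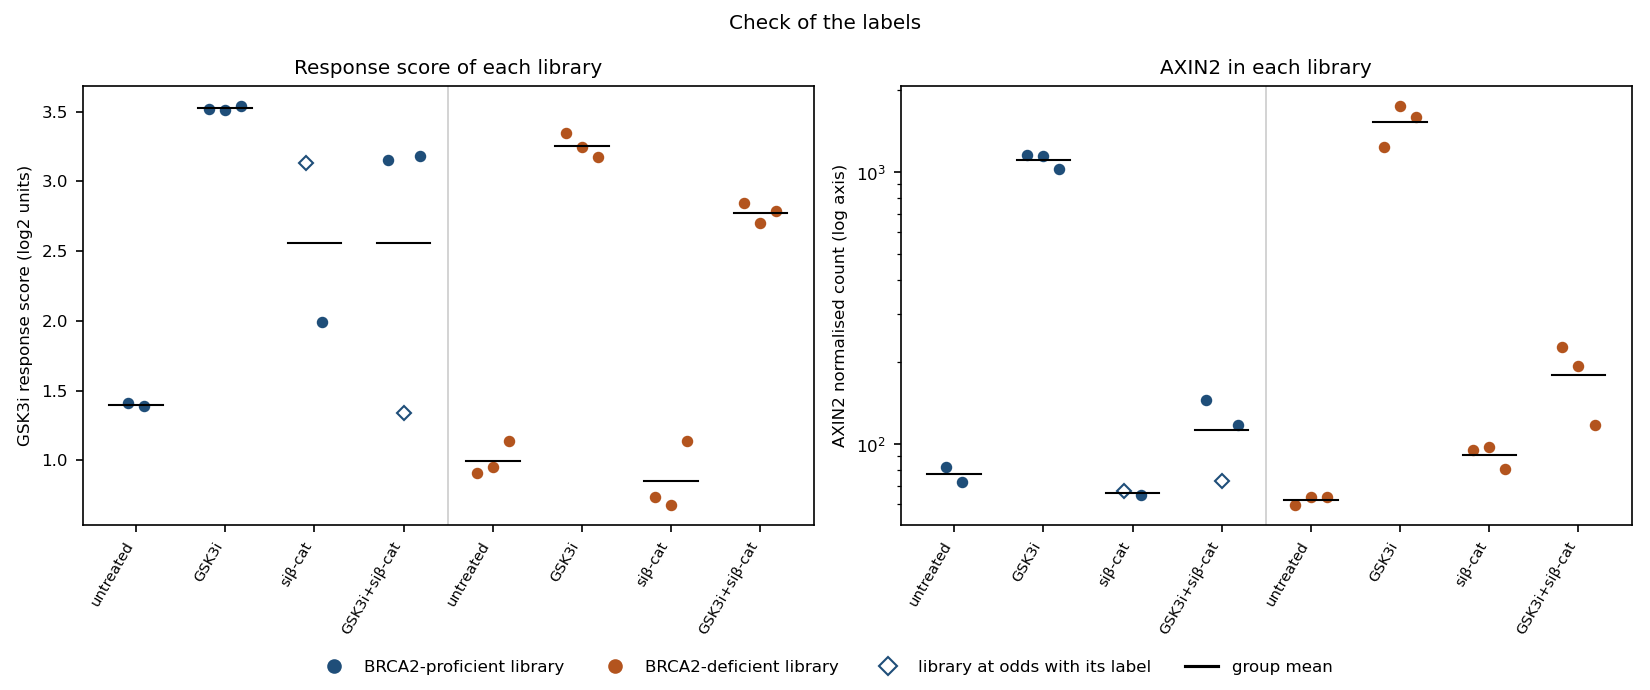
Left, the GSK3i response score (log2 units) of each of 22 libraries by group, and right, AXIN2 normalised counts on a log axis. Points are libraries and black lines are group means. The open diamonds are the libraries labelled BRCA2-proficient siβ-catenin replicate 2 (score 3.13) and BRCA2-proficient GSK3i+siβ-catenin replicate 2 (score 1.34). Each score was within the range of the opposite treatment over both backgrounds. It lay just below that range among BRCA2-proficient libraries alone (3.15 to 3.54 with GSK3i, 1.39 to 1.99 without). Their AXIN2 counts were 67.2 and 73.1.

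Because AXIN1 and GSK3A rose with GSK3i and GSK3B did not, the 250 bases before the start of each of these 3 genes are shown for sequence context. RefSeq promoters (GRCh38.p14) were found for 7 of the 10 genes, as 12 windows, and GSK3A, AXIN1 and GSK3B had 1 window each. Capitals mark GC boxes (GGGCGG, or CCGCCC on the other strand), the letters bound by SP1-type factors.
GSK3A (chr19:42242603-42242852, minus strand): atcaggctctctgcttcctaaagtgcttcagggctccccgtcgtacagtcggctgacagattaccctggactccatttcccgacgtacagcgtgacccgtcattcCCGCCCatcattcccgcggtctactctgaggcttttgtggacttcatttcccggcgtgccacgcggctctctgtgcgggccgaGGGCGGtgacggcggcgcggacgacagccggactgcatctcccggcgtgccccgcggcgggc
AXIN1 (chr16:352724-352973, minus strand): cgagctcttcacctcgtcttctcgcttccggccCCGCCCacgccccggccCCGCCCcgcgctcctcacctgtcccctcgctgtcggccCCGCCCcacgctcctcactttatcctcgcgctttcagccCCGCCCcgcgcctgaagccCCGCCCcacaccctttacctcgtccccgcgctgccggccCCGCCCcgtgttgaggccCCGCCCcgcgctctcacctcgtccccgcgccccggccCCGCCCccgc
GSK3B (chr3:120094448-120094697, minus strand): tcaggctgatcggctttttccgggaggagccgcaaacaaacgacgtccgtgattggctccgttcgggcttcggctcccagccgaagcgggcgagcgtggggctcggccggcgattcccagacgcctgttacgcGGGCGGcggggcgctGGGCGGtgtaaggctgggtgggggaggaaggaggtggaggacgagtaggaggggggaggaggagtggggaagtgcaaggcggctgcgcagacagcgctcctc
The AXIN1 window had 8 GC boxes at 77.6% GC, the GSK3A window 2 at 65.2% and the GSK3B window 2 at 68.8%, against a median of 58.0% GC over all 35116 windows. A GC box was found in 9 of the 12 windows and in 42.6% of all windows. The TCF/LEF core ATCAAAG (on the other strand, the same core reads CTTTGAT) was found in 0 of the 12 windows and in 2.26% of all windows. The E-box CACGTG, which reads the same on either strand, was found in 1 of the 12, upstream of APC, and in 6.34% of all. A match is a run of letters only, and its absence says nothing of sites outside these windows.

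Across genes, levels can be set side by side only per length. Per kb of merged exons, the median over the 22 libraries was 643 normalised counts for GSK3A, 610 for FBXW11, 603 for CSNK1A1 and 420 for CSNK1D. Further down came AXIN1 at 232, GSK3B at 181 and BTRC at 147, and lowest were TNKS at 74.9, APC at 49.4 and FBXW7 at 43.0. The first 3 were not separated: GSK3A was above FBXW11 in 11 of 22 libraries and FBXW11 above CSNK1A1 in 11. APC was above FBXW7 in 12 of 22. CSNK1D was above AXIN1 in all 22 libraries, and BTRC above TNKS in all 22, with ranges that did not overlap.

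On GRCh37 the genes lie at chr19:42730377-42746777 (GSK3A), chr3:119540168-119813841 (GSK3B), chr5:148872545-148931034 (CSNK1A1), chr17:80196899-80231576 (CSNK1D), chr16:337440-402723 (AXIN1) and chr5:112043215-112181936 (APC). The F-box genes lie at chr10:103113790-103317078 (BTRC), chr5:171288553-171433877 (FBXW11) and chr4:153241696-153457244 (FBXW7), and TNKS at chr8:9413422-9639856. APC, BTRC and TNKS are on the plus strand and the others on the minus strand, and all are annotated as protein-coding. Other exon overlaps were small, 8.28% at most on the same strand (GSK3A).

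The order among genes depended on which length was used. GSK3B has 17871 bases of merged exons, the most of the 10, but only 2019 coding bases. Per kb of coding sequence GSK3B (median 1602 normalised counts) lay beside GSK3A (1558), CSNK1A1 (3231) and CSNK1D (3109) led, and APC (76.6), with 8784 coding bases, was lowest. AXIN1, BTRC, TNKS and FBXW7 stayed in that sequence on both scales. CSNK1A1 is the least certain of the 10, since 49.31% of its exon bases are shared with a non-coding gene on the same strand, ENSG00000230551, which held 6.12% of the counts of both.

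**Figure D2:**
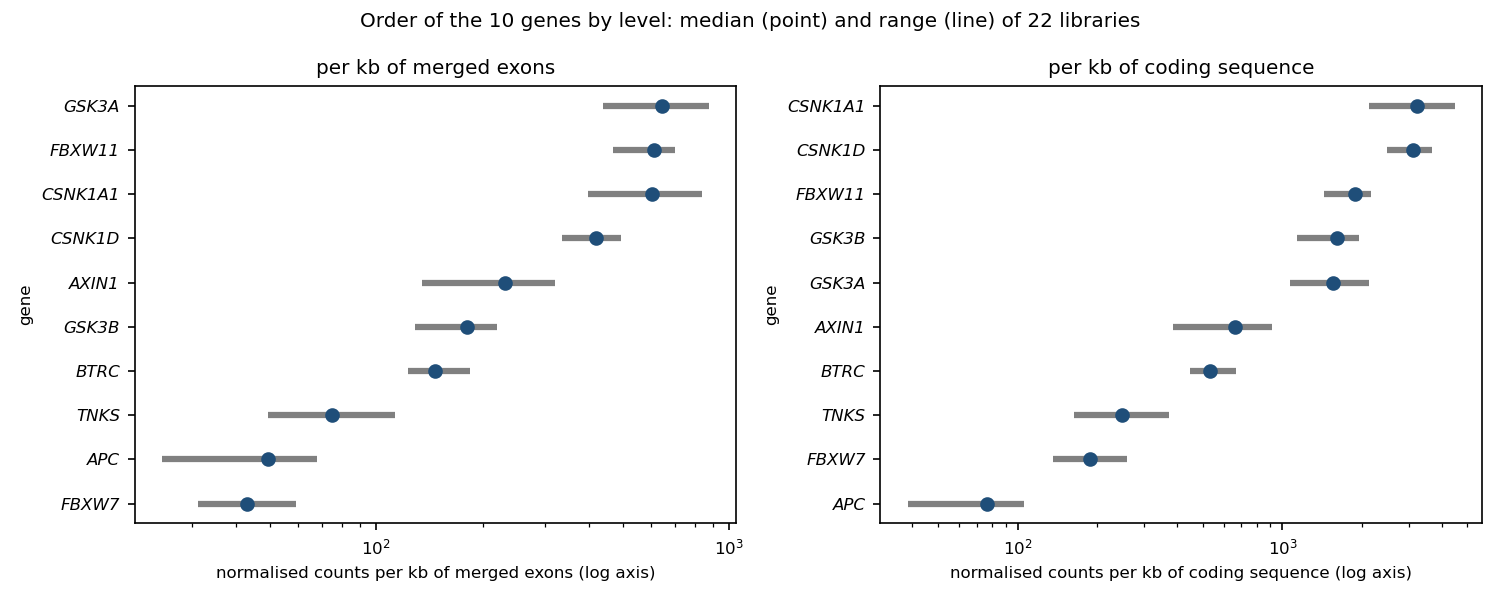
Normalised counts per kb of merged exons (left) and per kb of coding sequence (right), on log axes, for the 10 genes ordered by median. Points are medians and lines the range over 22 libraries: GSK3A led per exon kb (643) and CSNK1A1 per coding kb (3231).

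Over all 22 libraries no gene of the complex was absent or close to it. The lowest value of any was 337 normalised counts (APC, BRCA2-deficient GSK3i replicate 1). The ratio of the highest to the lowest library lay between 1.47 (CSNK1D) and 2.75 (APC), while AXIN2 spanned 29.4-fold.

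**Figure D3:**
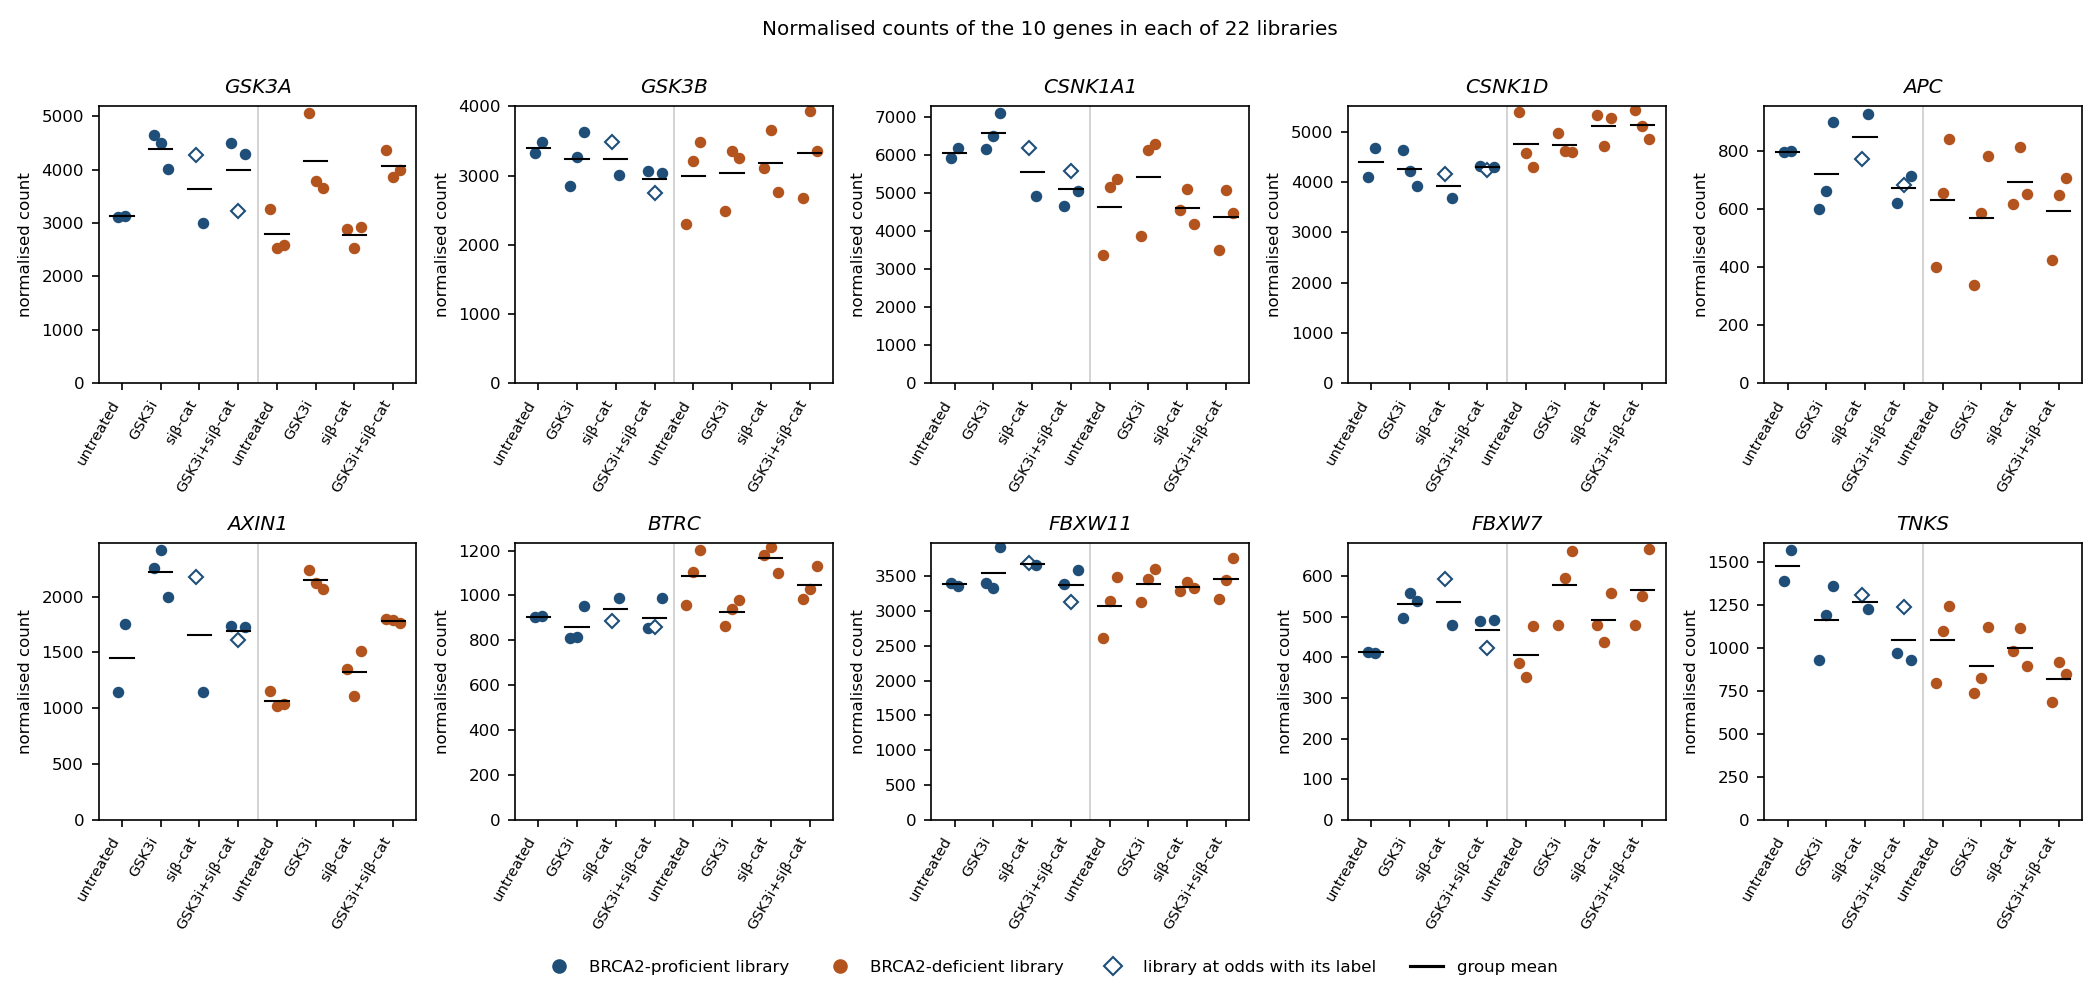
Normalised counts (vertical axes from 0) of the 10 genes in each library, by group. Points are libraries, black lines group means, and open diamonds the 2 libraries at odds with their labels. AXIN1 and GSK3A stand higher in GSK3i groups, most clearly in BRCA2-deficient cells, where AXIN1 was at 1018 to 1152 untreated and 2071 to 2242 with GSK3i.

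The first comparison asked whether the mRNAs of the complex changed when its own kinase was inhibited. A call required a log2 fold change above 0.5 in size together with a Benjamini-Hochberg adjusted p under 0.05 in DESeq2's Wald test. In BRCA2-proficient cells 1 of the 10 genes was called, AXIN1, against 26.1% of all genes tested. In BRCA2-deficient cells 3 of 10 were called, AXIN1, GSK3A and FBXW7, against 25.4% of all genes. All were higher with GSK3i, a direction in which 11.8% and 11.6% of all genes were called. In BRCA2-proficient cells the share of the 10 exceeded neither background. In BRCA2-deficient cells it was near that for either direction but above that for higher calls (30% against 11.6%). With only 10 genes and no set test, the counts do not set the 10 genes apart in either cell type. Groups without overlap were also common. They held for 61.4% of all genes in BRCA2-proficient cells (4 of the 10) and 43% in BRCA2-deficient cells (3 of the 10). With libraries scaled by total counts, the log2 fold changes of the 10 moved by a median of −0.13 (BRCA2-proficient) and −0.11 (BRCA2-deficient), which left 0 and 1 called (AXIN1 in BRCA2-deficient cells). The 2 comparisons use different libraries. In a bulk library, fewer cells expressing a gene and less of its RNA per cell cannot be told apart.

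AXIN1, the scaffold that holds the kinases and β-catenin together, changed most. In BRCA2-deficient cells its normalised counts were 1152, 1018 and 1037 untreated and 2242, 2122 and 2071 with GSK3i. The groups lay far apart, and AXIN1 rose 2.00-fold (SE 0.14 on the log2 scale, adjusted p = 5.64e-11, DESeq2). In BRCA2-proficient cells the values were 1147 and 1751 untreated and 2261, 2414 and 1999 with GSK3i. Those groups did not overlap either, but the untreated libraries lay well apart from each other. The log2 fold change was 0.60 ± 0.18 (adjusted p = 0.00416, DESeq2), and it rested on replicate 2 of the untreated cells. Without that library it was 0.34 (adjusted p = 0.255) and AXIN1 was not called. With the replicate number as a block, over the 2 numbers these groups share, it was 0.62 and not called either (adjusted p = 0.285). In BRCA2-deficient cells AXIN1 was called whichever library was left out. The difference between the backgrounds in the response of AXIN1 was 0.39 ± 0.24 on the log2 scale in DESeq2's interaction term and did not pass, so no difference was shown.

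GSK3A, the gene of the α form of the inhibited kinase, was higher with GSK3i in either background. In BRCA2-proficient cells it stood at 3116 and 3136 normalised counts untreated and at 4641, 4500 and 4006 with GSK3i. The groups did not overlap. Its log2 fold change of 0.47 ± 0.13 (adjusted p = 0.00136, DESeq2) fell short of the required size, and passed it (0.55) without GSK3i replicate 3. In BRCA2-deficient cells it stood at 3258, 2537 and 2585 untreated and at 5067, 3789 and 3645 with GSK3i. Replicate 1 was the highest library of both groups. The log2 fold change was 0.58 ± 0.20 (adjusted p = 0.0158, DESeq2). That call was lost without untreated replicate 2 (adjusted p = 0.138), untreated replicate 3 (adjusted p = 0.0729) or GSK3i replicate 1 (adjusted p = 0.0603), with log2 fold changes from 0.41 to 0.52. It was kept with the replicate number as a block.

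GSK3B, the gene of the β form, did not follow GSK3A. Its log2 fold change with GSK3i was −0.08 ± 0.14 in BRCA2-proficient cells (95% interval −0.36 to 0.19) and 0.01 ± 0.21 in BRCA2-deficient cells (−0.40 to 0.43). In the latter it stood at 2294, 3208 and 3492 normalised counts untreated and at 2484, 3351 and 3259 with GSK3i. Replicate 1 was the lowest in both groups and the other libraries overlapped. Both upper bounds lay below the log2 fold changes of AXIN1 and of GSK3A in the same cells. In BRCA2-deficient cells the intervals of GSK3A and GSK3B overlapped, and the difference between these genes was not tested.

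FBXW7, the F-box protein of other GSK3 substrates, was at 387, 352 and 477 normalised counts in BRCA2-deficient untreated libraries and at 480, 595 and 663 with GSK3i. The lowest GSK3i library lay just above the highest untreated one. Its log2 fold change of 0.52 ± 0.21 (adjusted p = 0.0469, DESeq2) was close to both limits of the call, and it was not called by edgeR's quasi-likelihood test (adjusted p = 0.0840) or by DESeq2 with TMM scaling (adjusted p = 0.0606). The call was also lost without untreated replicate 1 (0.48), untreated replicate 2 (0.42), GSK3i replicate 2 (0.50) or GSK3i replicate 3 (0.41). It was kept with the replicate number as a block. In BRCA2-proficient cells FBXW7 went from 414 and 411 to 497, 559 and 540 normalised counts. The groups did not overlap, as in 61.4% of all genes there, and the log2 fold change of 0.35 ± 0.16 did not pass the test (adjusted p = 0.0807, DESeq2).

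The other 6 genes were not called with GSK3i in either background. BTRC and FBXW11, which recognise phosphorylated β-catenin itself, gave log2 fold changes of −0.09 ± 0.15 and 0.05 ± 0.13 in BRCA2-proficient cells. With BRCA2 depleted they gave −0.23 ± 0.16 and 0.14 ± 0.17. The large scaffold APC gave −0.16 ± 0.19 and −0.15 ± 0.34. CSNK1A1 gave 0.10 ± 0.12 and 0.23 ± 0.25, and CSNK1D, a related kinase that also acts on WNT components, −0.06 ± 0.14 and −0.01 ± 0.15. TNKS gave −0.36 ± 0.17 in BRCA2-proficient cells (adjusted p = 0.0907, DESeq2), where its untreated libraries (1391 and 1569 normalised counts) lay above all 3 GSK3i libraries (933, 1195 and 1363), and −0.23 ± 0.24 in BRCA2-deficient cells. Median log2 fold changes of the 10 genes lay between −0.22 and 0.11 over the 12 comparisons of 2 groups, and those of all genes tested between −0.02 and 0.02.

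**Figure D4:**
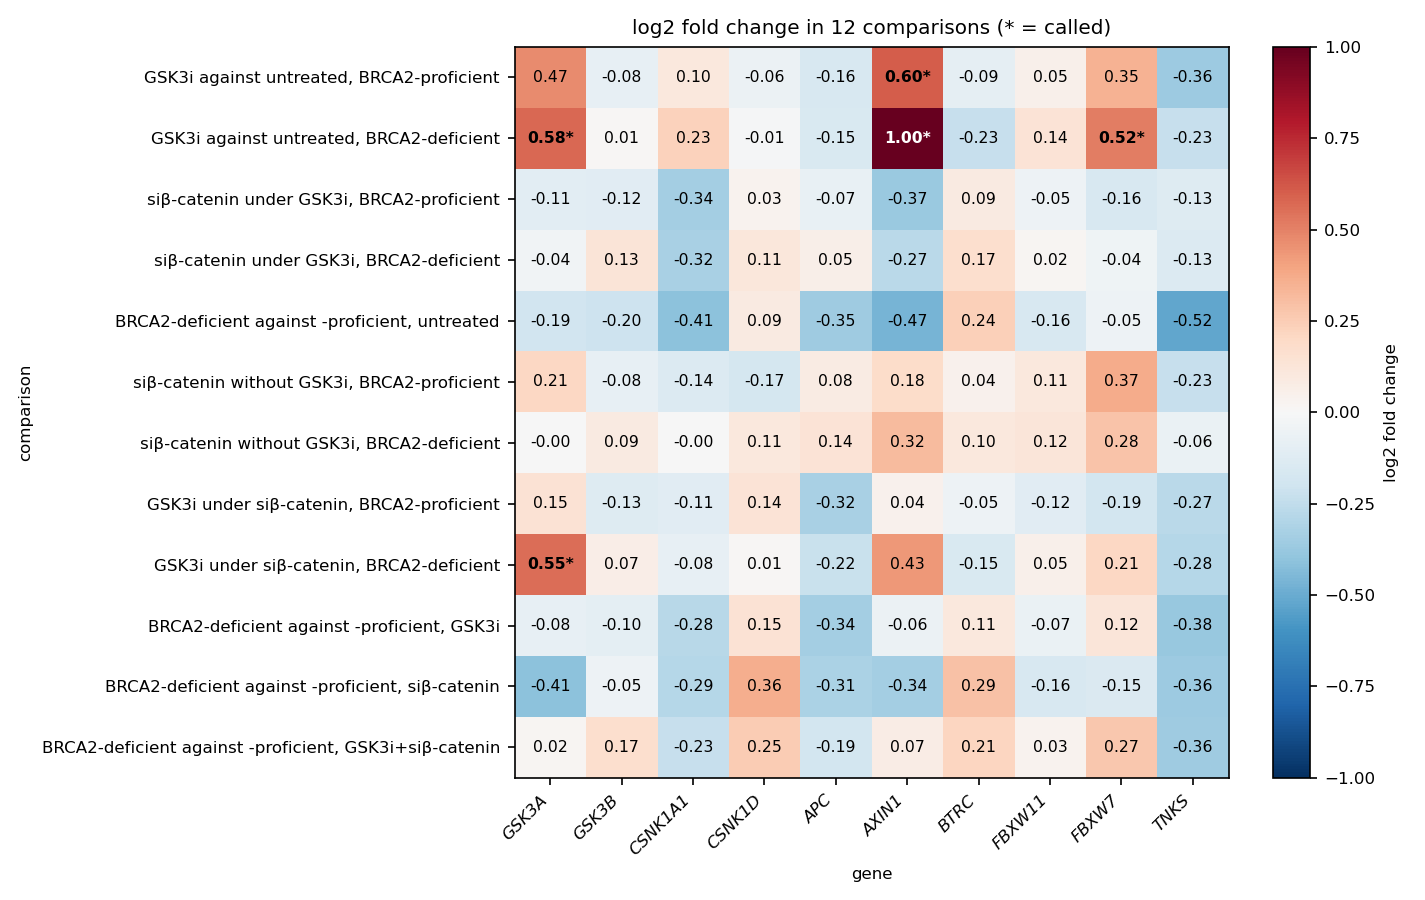
log2 fold changes (colour and printed value) of the 10 genes, in columns, in the 12 comparisons of 2 groups, in rows, with an asterisk where the gene was called. The 5 calls are AXIN1 in both backgrounds with GSK3i, GSK3A and FBXW7 in BRCA2-deficient cells with GSK3i, and GSK3A in BRCA2-deficient cells with GSK3i under siβ-catenin.

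The next comparison asked whether these changes needed β-catenin, by adding siβ-catenin to GSK3i-treated cells. It shares the GSK3i libraries with the comparison above. CTNNB1 had log2 fold changes of −1.68 ± 0.15 (BRCA2-proficient) and −1.96 ± 0.24 (BRCA2-deficient). None of the 10 genes was called in either background, where 4.95% and 5.52% of all genes were. Groups did not overlap in 26.9% of all genes in BRCA2-proficient cells (3 of the 10) and 23.5% in BRCA2-deficient cells (2 of the 10). AXIN1 was lower in each sample given siβ-catenin. In BRCA2-deficient cells it stood at 1804, 1788 and 1767 normalised counts, below all 3 GSK3i libraries (2071 to 2242), with a log2 fold change of −0.27 ± 0.11 (adjusted p = 0.152, DESeq2, and 0.0127 with the replicate number as a block, still short of the size). In BRCA2-proficient cells it stood at 1740, 1611 and 1729, below GSK3i libraries of 1999 to 2414, with −0.37 ± 0.14 (adjusted p = 0.0841, DESeq2). Without the library labelled BRCA2-proficient GSK3i+siβ-catenin replicate 2 this was −0.34 (adjusted p = 0.0976). GSK3A did not show such a shift, at −0.11 ± 0.16 (0.02 without that library) and −0.04 ± 0.17 (95% interval −0.37 to 0.30). CSNK1A1 was at −0.34 ± 0.14 (adjusted p = 0.130) in BRCA2-proficient cells and −0.42 without the library (adjusted p = 0.0125, DESeq2), short of the size. In BRCA2-deficient cells CSNK1A1 was at 3857, 6138 and 6283 normalised counts with GSK3i and at 3494, 5085 and 4483 with siβ-catenin added, lower in each replicate number though the groups overlapped. Its log2 fold change there was −0.32 ± 0.24 (adjusted p = 0.546, DESeq2) and −0.31 with the block (adjusted p = 0.00425), short of the size.

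GSK3i was also compared with no inhibitor in cells that were all given siβ-catenin. Depletion was partial. In BRCA2-deficient cells mean CTNNB1 was 1744 normalised counts with siβ-catenin against 7609 untreated, and 1481 against 5711 with GSK3i. Mean AXIN2 still went from 90.9 to 179 with GSK3i under siβ-catenin there. How far the remaining β-catenin acted on the values below was not tested. In BRCA2-deficient cells GSK3A was the only one of the 10 called, against 20.1% of all genes (8.56% higher). It stood at 2881, 2537 and 2929 normalised counts in siβ-catenin libraries and at 4371, 3856 and 3983 in GSK3i+siβ-catenin libraries. The groups did not overlap (as in 40.4% of all genes), with a log2 fold change of 0.55 ± 0.14 (adjusted p = 0.000978, DESeq2), close to its 0.58 under control siRNA. Without siβ-catenin replicate 2 or GSK3i+siβ-catenin replicate 1 it was 0.49, and with total-count scaling 0.47, each short of the size. AXIN1 went from 1350, 1112 and 1517 to 1804, 1788 and 1767 (0.43 ± 0.16, adjusted p = 0.0294, DESeq2), short of the size, and was called (0.54) without siβ-catenin replicate 3. FBXW7 gave 0.21 ± 0.18.

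Under siβ-catenin in BRCA2-proficient cells the libraries at odds with their labels fell 1 in each group. AXIN1 stood at 2176 and 1141 normalised counts in the libraries labelled siβ-catenin (replicates 2 and 3) and at 1740, 1611 and 1729 in those labelled GSK3i+siβ-catenin. GSK3A stood at 4269 and 2997, then at 4501, 3214 and 4285. FBXW7 stood at 593 and 481, then at 490, 423 and 491. For all 3 genes replicate 2 was the highest of the libraries labelled siβ-catenin and the lowest of those labelled GSK3i+siβ-catenin. With every library, 9 of 17010 genes were called (0.0529%) and none of the 10. Without both libraries, a fit with 1 siβ-catenin library and 2 GSK3i+siβ-catenin libraries gave log2 fold changes of 0.55 for GSK3A and 0.60 for AXIN1. That fit takes the lone library to vary like the others. The libraries left out were picked by their GSK3i response, so the fit is no test of that response.

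How far siβ-catenin altered the response to GSK3i was tested as an interaction term, called on the adjusted p alone. In BRCA2-deficient cells the difference for AXIN1 was −0.59 ± 0.18 on the log2 scale, a smaller rise under siβ-catenin, which did not pass (adjusted p = 0.141, DESeq2). With the replicate number as a block the difference was −0.58 and passed (adjusted p = 0.0193), and it also passed without siβ-catenin replicate 2 (−0.69, adjusted p = 0.00402). In that test 0.453% of all genes were called. GSK3A gave −0.04 ± 0.23. In BRCA2-proficient cells AXIN1 gave −0.56 ± 0.36 with every library (adjusted p = 0.329, DESeq2, 7.43% of all genes called). It gave 0.00 without both libraries at odds with their labels, which left 1 siβ-catenin library. Leaving out only siβ-catenin replicate 3 there gave −0.95, again with 1 library left in that group. The AXIN1 value in BRCA2-proficient cells thus turned on which siβ-catenin library was kept.

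Without GSK3i, siβ-catenin changed none of the 10 genes past the test. In BRCA2-deficient cells 2% of all genes were called, and the log2 fold changes of the 10 lay between −0.06 (TNKS) and 0.32 (AXIN1, ± 0.17, 95% interval −0.01 to 0.65). In BRCA2-proficient cells 2.82% of all genes were called, and AXIN1 gave 0.18 ± 0.32 with both siβ-catenin libraries. It gave −0.34 without the library labelled replicate 2, in a fit with 1 siβ-catenin library left and no gene dropped for low counts. GSK3A likewise went from 0.21 ± 0.22 to −0.06. The change in sign came with the loss of that library.

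BRCA2 depletion was compared with its absence under each of the 4 treatments. None of the 10 genes was called untreated, where 6.90% of all genes were. None was called under GSK3i (6.81% of all genes), under siβ-catenin (27.4%) or under GSK3i+siβ-catenin (7.74%). TNKS was the furthest from 0, at 1391 and 1569 normalised counts in BRCA2-proficient untreated libraries and at 794, 1102 and 1243 in BRCA2-deficient ones. The groups did not overlap, as in 40% of all genes, and the log2 fold change was −0.52 ± 0.23 (adjusted p = 0.160, DESeq2). It ranged with the library left out, from −0.34 without BRCA2-deficient untreated replicate 1 to −0.68 without BRCA2-deficient untreated replicate 3, where it was called (adjusted p = 0.0123). The TNKS values under the other treatments were −0.38 ± 0.22, −0.36 ± 0.18 and −0.36 ± 0.20. AXIN1 gave −0.47 ± 0.22 untreated and −0.06 ± 0.13 under GSK3i. Under siβ-catenin AXIN1 gave −0.34 ± 0.28 with every library and 0.18 without the library labelled BRCA2-proficient siβ-catenin replicate 2, and GSK3A −0.41 ± 0.20 and −0.14. Leaving out BRCA2-proficient siβ-catenin replicate 3 instead gave −0.74 for AXIN1 (adjusted p = 0.00681) and −0.65 for GSK3A (adjusted p = 0.00620, DESeq2), both called. Under GSK3i+siβ-catenin none was called with or without the library labelled replicate 2, and GSK3A went from 0.02 ± 0.18 to −0.12.

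Part of the spread lay between replicate numbers. In BRCA2-deficient cells, replicate 1 was the lowest library for 6 of the 10 genes untreated, for 7 under GSK3i and for 7 under GSK3i+siβ-catenin, but for 2 under siβ-catenin. In the first 3 of these groups APC was at 399, 337 and 425 normalised counts in replicate 1, against 585 to 841 in replicates 2 and 3 of the same groups. CSNK1A1 was at 3377, 3857 and 3494 against 4483 to 6283. GSK3A, AXIN1 and CSNK1D were instead highest in replicate 1 of these groups. Across 14073 genes the deviation of those 3 replicate 1 libraries from their group means had a Spearman rho of −0.41 to −0.46 with merged exon length, a description over genes that are not independent. BRCA2-deficient siβ-catenin replicate 1 had −0.22 and BRCA2-proficient GSK3i replicate 1 had −0.42. The part of this in the values of the 10 genes was not tested.

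Ratios between paralogues, chosen after the values were seen, remove only what a library shifts the same way in 2 genes. Because of that choice they are given as a description, with no test, as mean differences by each factor with the other 2 held. The ratio of BTRC to FBXW11, the paralogues that bind the β-catenin degron, was higher in BRCA2-deficient than in BRCA2-proficient cells in 4 of 4 treatments. The log2 ratio was −1.91 and −1.89 in BRCA2-proficient untreated libraries and −1.44, −1.51 and −1.54 in BRCA2-deficient ones. With GSK3i it was −2.07, −2.04 and −2.04 against −1.85, −1.88 and −1.88. With siβ-catenin it was −2.05 and −1.89 against −1.48, −1.49 and −1.60, and with both −1.99, −1.87 and −1.86 against −1.69, −1.74 and −1.73. The groups overlapped in none of the 4. Single genes were also often apart by BRCA2 status, from 26% to 56.1% of all genes depending on the treatment. How often the ratios of other gene pairs lie apart in all 4 was not tested. The mean difference of the BTRC to FBXW11 ratio was 0.30 on the log2 scale, and 0.29 without both libraries at odds with their labels.

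Neither gene of that pair was called for BRCA2 depletion. BTRC gave log2 fold changes of 0.24 ± 0.18 untreated, 0.11 ± 0.15 under GSK3i, 0.29 ± 0.16 under siβ-catenin and 0.21 ± 0.17 under GSK3i+siβ-catenin. FBXW11 gave −0.16 ± 0.19, −0.07 ± 0.14, −0.16 ± 0.14 and 0.03 ± 0.16. Per kb of merged exons BTRC made up 18.4% ± 0.175 (SD, n = 2) of the pair in BRCA2-proficient untreated and 23.0% ± 0.584 (SD, n = 3) in BRCA2-deficient untreated cells. With GSK3i the shares were 16.9% ± 0.153 and 18.7% ± 0.159 (n = 3 each). The ratio was lower with GSK3i on average (a log2 difference of −0.16), in 3 of 4 strata, and in 4 of 4 without both libraries (−0.19). For siβ-catenin the difference was 0.05, and 0.06 without both libraries.

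The ratio of GSK3A to GSK3B was higher with GSK3i in 4 of 4 strata, by 0.47 on average on the log2 scale, and by 0.53 without both libraries. The groups overlapped in 3 of the 4 strata. Between libraries of the same number in BRCA2-deficient cells, the log2 ratio was higher with GSK3i by 0.52, 0.52 and 0.60 under control siRNA and by 0.82, 0.50 and 0.17 under siβ-catenin. Under control siRNA in BRCA2-deficient cells, replicate 1 had the highest ratio both with and without GSK3i (1.03 and 0.51). There GSK3A lay above its group mean and GSK3B below, which the ratio adds up. Their log2 deviations were 0.23 and −0.36 untreated, and 0.30 and −0.27 with GSK3i. Per kb of merged exons GSK3A made up 74.0% ± 0.532 (SD, n = 2) of the pair in BRCA2-proficient untreated cells and 80.6% ± 3.06 (SD, n = 3) with GSK3i, and 74.0% ± 6.49 and 80.5% ± 4.998 (n = 3 each) in BRCA2-deficient cells. The mean differences of this ratio for BRCA2 depletion and siβ-catenin were −0.10 and 0.00.

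**Figure D5:**
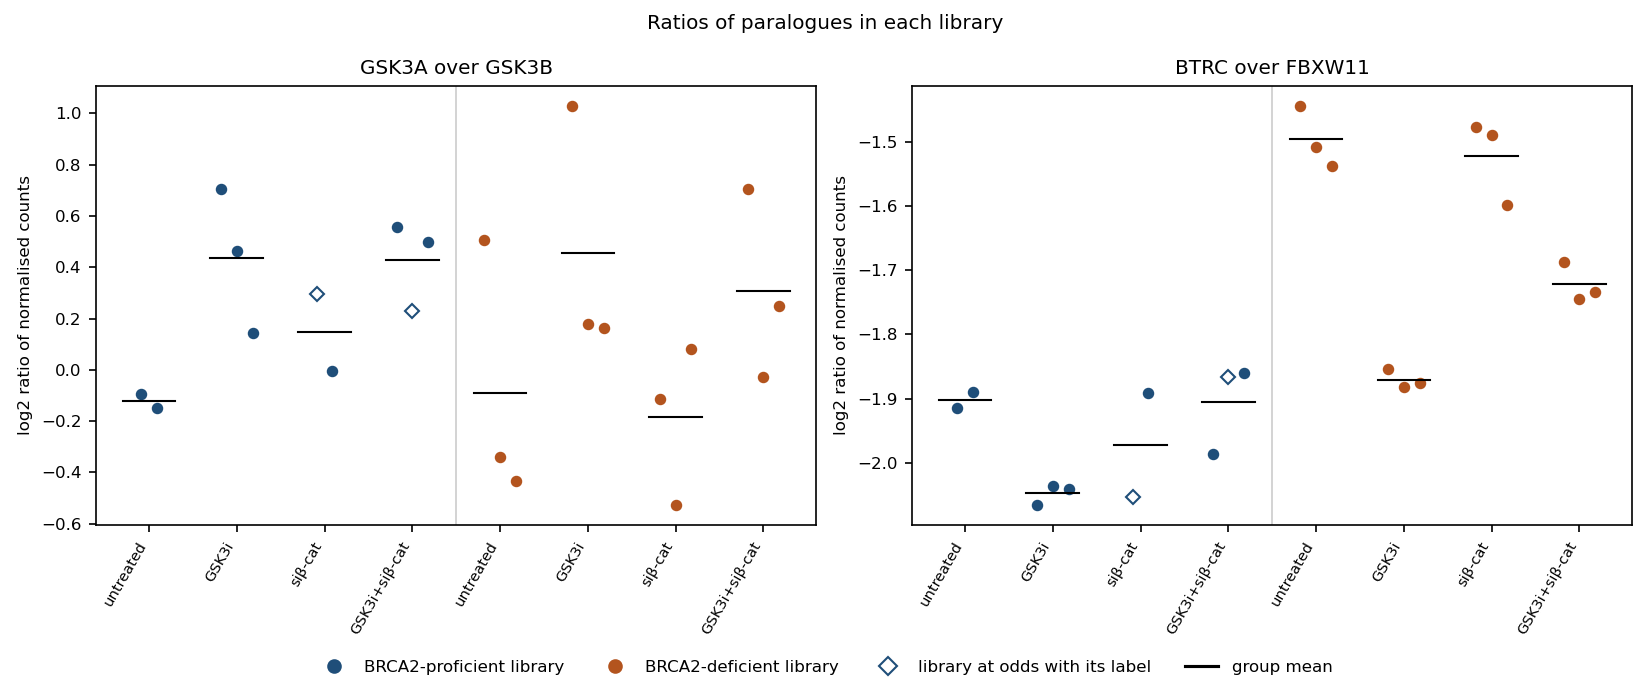
log2 ratio of normalised counts of GSK3A to GSK3B (left) and of BTRC to FBXW11 (right) in each library, by group. Points are libraries, black lines group means and open diamonds the libraries at odds with their labels. BTRC over FBXW11 is higher in BRCA2-deficient cells under each treatment (−1.44 to −1.54 against −1.89 and −1.91 untreated), and GSK3A over GSK3B overlaps more widely.

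Over the 22 libraries, which share treatments and replicate numbers, the 10 genes fell into sets that varied together, described by Pearson's r of log2 values. GSK3A and AXIN1 had the highest r of any pair (0.86). APC and TNKS had 0.81, CSNK1A1 and TNKS 0.74, and APC and GSK3B 0.74, and of these genes APC was lowest in replicate 1 of all 4 BRCA2-deficient groups and the others in 3 of the 4. CSNK1D ran against APC (−0.68) and TNKS (−0.70), and BTRC against GSK3A (−0.68). Of 11897 other genes, the closest pattern to AXIN1 was that of SLC3A2 (r = 0.96), a subunit of amino acid transporters, and to GSK3A that of CYSTM1 (0.97). The closest to GSK3B was DOK6 (0.95), to CSNK1A1 FOXJ3 (0.97) and to CSNK1D LRPAP1 (0.93). The closest to APC was TUT7 (0.97), to TNKS FER (0.94), to BTRC TBC1D2B (0.92), to FBXW11 MFAP3 (0.93) and to FBXW7 VAV2 (0.89).

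The wider machinery was taken from 42 other genes listed by function. With GSK3i 10 of 42 were called in either background, 7 higher and 3 lower, against 26.1% and 25.4% of all genes. None of 9 PP2A phosphatase subunits was called. Of 11 genes of the SCF core and its activators, 2 were called higher with BRCA2 present and 1 with BRCA2 depleted, and the gene called in both was USP7, a deubiquitinase (0.58 ± 0.13 and 0.59 ± 0.16). The other, in BRCA2-proficient cells, was CDC34, the ubiquitin-conjugating enzyme of SCF (0.59 ± 0.17), named after its values were seen. The core subunits SKP1, CUL1 and RBX1 were not called.

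Of the paralogues, AXIN2 rose by 3.83 ± 0.19 and 4.61 ± 0.22 on the log2 scale, while APC2, CSNK1E and TNKS2 were not called. Of 8 other ubiquitin ligase genes of the pathway, ZNRF3, a ligase that removes WNT receptors, rose by 1.23 ± 0.18 and 1.59 ± 0.23. SIAH2 rose by 0.82 ± 0.16 and 0.68 ± 0.15. RNF43, the paralogue of ZNRF3, rose by 1.99 ± 0.44 in BRCA2-deficient cells, from 15.9 to 63.6 mean normalised counts, and is named after its values were seen. TBL1X, which joins SIAH1 to β-catenin, gave −0.88 ± 0.16 and −1.26 ± 0.18. AXIN2, ZNRF3 and SIAH2 were also the genes of the list called lower with siβ-catenin under GSK3i in both backgrounds, where AXIN2 gave −3.29 ± 0.23 and −3.10 ± 0.26 and ZNRF3 −0.77 ± 0.23 and −0.69 ± 0.20.

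Among 10 scaffold partners and GSK3-binding proteins, 2 were called higher and 2 lower with GSK3i in each background. AMER1, which brings APC and axin to the membrane, rose by 0.83 ± 0.21 and 1.21 ± 0.28, and DVL1, which recruits axin to activated receptors, by 0.64 ± 0.15 and 0.70 ± 0.17. FRAT2, a GSK3-binding protein that competes with axin, gave −0.71 ± 0.25 and −1.02 ± 0.24. Its paralogue FRAT1 was called lower, from 28.6 and 33.7 normalised counts in BRCA2-proficient untreated libraries to 0 to 2.33 with GSK3i, and from 31.7 to 49.8 down to 0 to 1.15 in BRCA2-deficient cells. FRAT1 was at 43.3 normalised counts in the library labelled BRCA2-proficient GSK3i+siβ-catenin replicate 2 and at 0 in the other libraries of that group.

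The response of the 10 genes to GSK3i did not differ detectably between BRCA2 backgrounds. None was called in the interaction test, where 0.0345% of all genes were, and the differences lay between −0.15 (BTRC) and 0.39 (AXIN1) on the log2 scale. The response to siβ-catenin under GSK3i gave none either (0.0057% of all genes), with differences from 0.02 (TNKS) to 0.26 (GSK3B). That count was also 0 without the library labelled BRCA2-proficient GSK3i+siβ-catenin replicate 2. SEs ran from 0.13 to 0.47 in these tests, and the 0.39 for AXIN1 lay within 2 of its SEs.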

How the data were processed

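Per the labels, polyadenylated RNA of 22 H1299 samples was sequenced, and the authors deposited 1 table of whole-number counts per gene. The submitters' processing notes name HISAT2 2.0.4, SAMtools 1.4, Picard 1.9.2 and featureCounts 1.5.0 on hg19, and the annotation release and strand setting of the counting are not given in the sources used here. Libraries held 18.9 to 29.3 M counts, and the lowest level of any of the 10 genes was 337 normalised counts.

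Each comparison of 2 groups was fitted on its own libraries with DESeq2 1.42.0 (R 4.3.3), after genes below 10 counts in more than 3 of those libraries were dropped, as in the study's methods. With 3 libraries that rule drops no gene, as in BRCA2-proficient siβ-catenin against untreated with 1 library left out. The comparison of GSK3i under siβ-catenin without both libraries at odds with their labels asked instead for 10 counts in every library. For interaction terms a gene needed 10 counts in at least 3 libraries. Values after ± are SEs unless called SD. Wald p-values were adjusted by Benjamini-Hochberg under DESeq2's default filtering, which can leave genes with low mean or outlying counts without an adjusted p. Such genes are counted among all genes tested, as not called. A call needed adjusted p below 0.05 and, except for interaction terms, a log2 fold change beyond 0.5. The code was checked on simulated data. Alternatives were edgeR 4.0.16, TMM or total-count scaling, no filter, 1 model over all 8 groups, the replicate number as a block, and each library left out. Leaving out both libraries at odds with their labels and the paralogue ratios were added after the data were seen. Symbols and positions matched 36479 of 37908 gene IDs. Ratios and levels were computed with Python 3.11.15.

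The 10 genes and the lists were chosen with earlier results of these data known. The text names the 10 genes, BRCA2, CTNNB1 and AXIN2 as checks, genes of the wider list called the same way in both backgrounds, paralogues of the 10, and for each of the 10 the gene with the closest pattern among those with a mean of at least 100 normalised counts. Replicate numbers come from the labels. In the 7 comparisons of 2 groups with 3 shared numbers, same-numbered libraries deviated together from their group means over all genes (r 0.17 to 0.84). The main fits do not use this pairing, and their p-values take the libraries as independent. The fit with the replicate number as a block is an alternative, given where it changes a call and for some other values. The other comparisons of 2 groups share 2 numbers. There r ran from −0.39 (GSK3i under siβ-catenin, BRCA2-proficient) to 0.29 (BRCA2 depletion, untreated), so the pairing did not hold throughout.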

Additional observations from a re-analysis of the deposited data

How the results depend on the processing

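Counts of the 10 genes called varied with the settings tried. GSK3i against untreated gave 1 in BRCA2-proficient cells, 0 with total-count scaling, 0 with the replicate block and 0 to 2 with 1 library left out. In BRCA2-deficient cells it gave 3, 1 with total-count scaling, 2 with TMM scaling or edgeR, 3 with the block and 1 to 2 with 1 library left out. GSK3i under siβ-catenin gave 1 in BRCA2-deficient cells, 0 with total-count scaling and 0 to 2 with 1 library left out, and in BRCA2-proficient cells 0. No count is given for the fit there without both libraries at odds with their labels, which kept 1 siβ-catenin library. BRCA2 depletion gave 0, but 1 under siβ-catenin with total-count scaling (CSNK1D, 0.51), 0 to 2 there with 1 library left out, and 0 to 1 untreated. The interaction of siRNA with GSK3i gave 0, with 0 to 1 in either background with 1 library left out, and 1 in BRCA2-deficient cells with the block (AXIN1, −0.58). The cause of these changes was not tested, but total-count scaling moves all 10 genes of a comparison by nearly the same amount, by −0.13 to 0.15 across comparisons. The block ended 1 call (AXIN1, BRCA2-proficient, log2 fold change 0.62, adjusted p = 0.285, DESeq2), on the 2 replicate numbers those groups share, and moved no other call besides that interaction. Of the single-gene values, 17 lost a call, 11 gained one, 179 that were not called turned sign and the other 1883 kept sign and call status. Over the alternatives AXIN1 kept its call in BRCA2-deficient cells (0.89 to 1.05, adjusted p 1.38e-22 to 0.00146), whereas GSK3A ran from 0.41 to 0.70 (adjusted p 1.02e-09 to 0.138) and FBXW7 from 0.41 to 0.65 (adjusted p 0.00137 to 0.256). The median share of GSK3A in its pair was 77.7% per exon kb, 48.8% per coding kb and 52.9% without length, and that of BTRC 18.8%, 21.6% and 21.6%.

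With 2 or 3 libraries a group, changes under about 0.5 on the log2 scale were often not separable from the replicate spread. mRNA counts give no measure of protein, kinase activity or isoforms, and the BRCA2-proficient siβ-catenin comparisons rest on libraries of which 2 were at odds with their labels by the response score.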
